A study of Mus musculus with 6 samples.

Results

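The genes described here encode chaperonins, large double-ring machines that enclose an unfolded protein and let it fold inside a closed chamber. The 10 genes were chosen by name: 8 encode the subunits of TRiC, also called CCT, the chaperonin of the cytosol (Tcp1, Cct2, Cct3, Cct4, Cct5, Cct6a, Cct7 and Cct8), and 2 encode the chaperonin of the mitochondrial matrix, Hsp60 (Hspd1) and its lid Hsp10 (Hspe1). They are 10 of the 19938 genes that had a probe set with a single symbol, and all 10 were among the 13956 genes left after dim genes were removed. Each TRiC ring is built of one copy of each subunit, and TRiC is best known for folding actin and tubulin. Hsp60 with Hsp10 folds proteins that have been imported into mitochondria. Growing and dividing cells, such as marrow progenitors, need both.

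Total RNA was measured on 6 Affymetrix arrays, from 3 MYB knockdown mice and 3 wild type mice, with 1 array per mouse. All mice were C57BL6 males of 4 weeks. The cells were taken from bone marrow by flow sorting for Kit and CD11b and for low levels of lineage markers, a gate abbreviated K11bL, which the title of the series calls myeloproliferative. Myb encodes a transcription factor of blood progenitors, and the labels do not say how its expression was lowered, in which cells, or whether it was lowered from birth. In bulk RNA of this kind, fewer cells of a type and less RNA per cell cannot be told apart. Values are log2 signals, and differences are knockdown minus wild type on that scale.

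Myb itself lay at 11.26, 11.08 and 11.14 in knockdown mice 1, 2 and 3, against 11.47, 11.46 and 11.46 in the wild type mice, and fell by 0.30 ± 0.06 (SE, n = 3 per group; adjusted p = 0.0196). The call was lost when wild type mouse 1, 2 or 3 was left out (adjusted p = 0.0963, 0.09 and 0.0928), and when knockdown mouse 2 was (0.0777). It was also lost after median centring (-0.23, adjusted p = 0.074) and without the trend of eBayes (0.0662). The sort markers were present in all mice: Kit lay at 10.22, 10.21 and 10.24 in knockdown, against 10.38, 10.53 and 10.58 in wild type, and Itgam, which encodes CD11b, at 9.85, 9.43 and 9.07 against 9.81, 9.90 and 9.82. Knockdown mouse 3 stood apart from the other arrays of its group, with correlations over all probe sets of 0.977 and 0.984, where knockdown mice 1 and 2 correlated at 0.994 and the wild type arrays at 0.993 to 0.995. Results that rest on this array are therefore given with and without it. Over all genes, 854 rose and 765 fell at an adjusted p under 0.05, which became 1433 and 593 when each array was centred on its median.

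The promoters give the arrangement of these genes. A window of 250 bases before to 50 bases after the annotated start was available from RefSeq (GRCm38.p6) for 9 members, while Cct4 had none. For 8 members another gene starts within 1000 bases on the opposite strand. Hspd1 and Hspe1 are such a pair: the outer annotated start of Hspd1 lies 95 bases inside Hspe1, so that their first bases overlap, and a second one lies within the Hspe1 window. Tcp1 is paired with Mrpl18, Cct3 with Tsacc, Cct5 with Atpsckmt, Cct6a with Psph, Cct7 with Pradc1 and Cct8 with B130034C11Rik, with 103 to 270 bases between the starts. The windows below are those of Hspe1, which covers most of the region shared with Hspd1, of Cct6a, which contains the start of Psph, and of Cct2, the member that passed the test on all arrays. Each is printed 5′ to 3′ on the strand of its gene, and capitals mark matches to the 3 motifs that were searched.
Hspe1, chr1:55087898-55088197, plus strand: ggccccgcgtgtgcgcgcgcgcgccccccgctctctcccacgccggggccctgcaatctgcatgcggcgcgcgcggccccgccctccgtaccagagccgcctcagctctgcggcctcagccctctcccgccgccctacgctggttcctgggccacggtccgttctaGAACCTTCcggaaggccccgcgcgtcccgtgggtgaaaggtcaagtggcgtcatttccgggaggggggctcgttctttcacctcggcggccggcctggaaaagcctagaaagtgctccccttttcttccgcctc
Cct6a, chr5:129787106-129787405, plus strand: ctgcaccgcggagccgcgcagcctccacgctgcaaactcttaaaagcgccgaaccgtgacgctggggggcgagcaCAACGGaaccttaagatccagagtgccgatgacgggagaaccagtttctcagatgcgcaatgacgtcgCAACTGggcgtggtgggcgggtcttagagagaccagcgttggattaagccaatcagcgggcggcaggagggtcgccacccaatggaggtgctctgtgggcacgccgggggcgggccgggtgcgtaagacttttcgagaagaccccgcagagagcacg
Cct2, chr10:117063803-117064102, minus strand: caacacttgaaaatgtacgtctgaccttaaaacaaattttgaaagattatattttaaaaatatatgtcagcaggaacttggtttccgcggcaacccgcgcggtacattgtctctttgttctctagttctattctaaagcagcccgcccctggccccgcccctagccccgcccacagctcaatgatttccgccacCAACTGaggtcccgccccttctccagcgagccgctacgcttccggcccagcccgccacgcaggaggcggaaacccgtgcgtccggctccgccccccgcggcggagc

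The motifs were the E-box CACGTG bound by MYC, the MYB recognition element TAACNG or CAACNG, and GAANNTTC, the core of the heat shock element, each on both strands. The capitals in the Hspe1 window are a heat shock core. Those in the Cct6a window are 2 MYB elements, and those in the Cct2 window 1 MYB element. The MYB element was found in a window of 6 of 9 members (Tcp1, Cct2, Cct3, Cct5, Cct6a and Cct7), where 49.7% of all 32851 windows of this length hold it. The heat shock core was found in 3 members (Cct2 in a second window, Hspd1 and Hspe1), against 7.86% of all windows, and the windows of Hspd1 and Hspe1 that hold it cover the same bases. The E-box was found in 1 member, Hspd1, against 7.15% of all windows. Members with several annotated starts have several windows and so more chance of a match. A match describes letters and not binding.

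All 10 chaperonin genes had a higher mean in knockdown than in wild type, by 0.14 to 0.34, with a median of 0.22 beside 0.02 over all genes tested, of which 53.6% had a higher mean. These are small differences, 1.10-fold to 1.27-fold. Only Cct2 rose by the test on all 6 arrays, 1 of 10 members, where 6.12% of all genes tested rose. Knockdown mice 1 and 2 lay above every wild type mouse for all 10 members, as they did for 32.3% of all genes. Knockdown mouse 3 lay below every wild type mouse for 5 members, as it did for 36.5% of all genes.

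**Figure D1:**
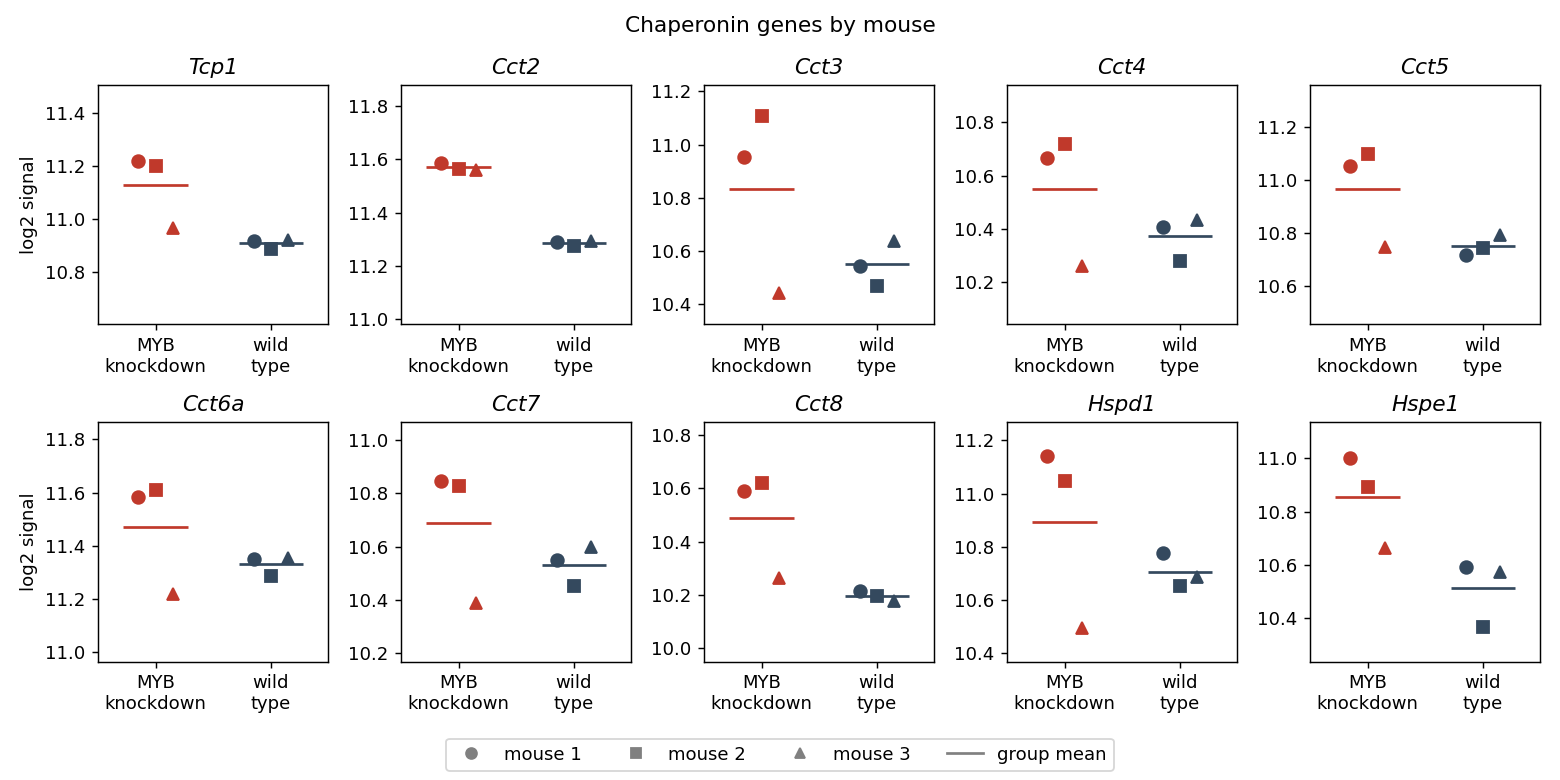
Log2 signal of the 10 chaperonin genes, 1 panel per gene, with MYB knockdown mice on the left and wild type mice on the right; each point is 1 mouse (the shape gives its number), the bar is the mean of 3, and every vertical axis spans the same range of log2 values. Knockdown mice 1 and 2 lie above all wild type mice in every panel, and the knockdown triangle, mouse 3, lies above all wild type mice for Cct2, Tcp1, Cct8 and Hspe1 and close to the other knockdown mice for Cct2.

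Cct2 encodes the beta subunit of TRiC. Its log2 values were 11.59, 11.57 and 11.56 in knockdown mice 1, 2 and 3, against 11.29, 11.27 and 11.29 in wild type mice 1, 2 and 3. All 3 knockdown mice lay above all wild type mice and close to each other (mean 11.57 ± 0.01 in knockdown and 11.29 ± 0.01 in wild type; SD, n = 3 each). Cct2 rose by 0.29 ± 0.05 (SE), or 1.22-fold (adjusted p = 0.0102). The difference kept its size without any 1 mouse, between 0.28 and 0.29, but the adjusted p was 0.057, 0.0582 and 0.0599 without wild type mouse 1, 2 or 3, and 0.0595 without the trend of eBayes.

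In Tcp1, the alpha subunit and the first TRiC gene to be described, the values were 11.22, 11.20 and 10.97 in knockdown, against 10.92, 10.89 and 10.92 in wild type. The groups did not overlap, although knockdown mouse 3 lay only slightly above the wild type mice. The difference of 0.22 ± 0.08 did not pass (adjusted p = 0.123). Cct8, the theta subunit, had the same order, at 10.59, 10.62 and 10.26 in knockdown, against 10.21, 10.19 and 10.18 in wild type. Its difference was 0.30 ± 0.10 (adjusted p = 0.112). The groups thus lay apart upward for 4 members, Cct2, Tcp1, Cct8 and Hspe1, where every knockdown array lay above every wild type array for 19.9% of all genes.

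Cct3, the gamma subunit, had the widest spread within the knockdown group of the TRiC genes. Its values were 10.95, 11.11 and 10.44 in knockdown, against 10.54, 10.47 and 10.64 in wild type, so that knockdown mouse 3 lay below all wild type mice while the other 2 lay above them (0.28 ± 0.16, adjusted p = 0.311). Cct4, the delta subunit, was split in the same way, with 10.67, 10.72 and 10.26 in knockdown, against 10.41, 10.28 and 10.43 in wild type (0.18 ± 0.12, adjusted p = 0.444). Cct7, the eta subunit, lay at 10.85, 10.83 and 10.39 in knockdown, against 10.55, 10.45 and 10.60 in wild type (0.16 ± 0.12, adjusted p = 0.508). For each of these genes the groups overlapped through that single array.

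Cct6a encodes the zeta subunit of somatic cells. Its values were 11.58, 11.61 and 11.22 in knockdown, against 11.35, 11.29 and 11.36 in wild type, the smallest mean difference of the 10 (0.14 ± 0.10, adjusted p = 0.466). Cct5, the epsilon subunit, lay at 11.05, 11.10 and 10.75 in knockdown, against 10.72, 10.74 and 10.79 in wild type (0.21 ± 0.10, adjusted p = 0.215). In Cct5 knockdown mouse 3 fell within the wild type range, and in Cct6a below it. Subunit levels were not set against each other, since probe sets differ in brightness.

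The Hsp60 and Hsp10 genes were each measured by 2 probe sets that the annotation assigns to the same reference transcript, and the brighter one was used. Hspd1 lay at 11.14, 11.05 and 10.50 in knockdown, against 10.78, 10.65 and 10.69 in wild type. Knockdown mouse 3 was the lowest of all 6 mice, and the difference of 0.19 ± 0.15 did not pass (adjusted p = 0.513). The dimmer Hspd1 probe set showed a wider split, with 11.02, 10.99 and 9.94 in knockdown, against 10.68, 10.43 and 10.53 in wild type. Its difference was smaller, at 0.11.

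Hspe1 had the largest mean difference of the 10, 0.34 ± 0.11, or 1.27-fold (adjusted p = 0.0757; 0.0447 after median centring). Its values were 11.00, 10.89 and 10.66 in knockdown, against 10.59, 10.37 and 10.57 in wild type, and the groups did not overlap. Its dimmer probe set gave 10.93, 10.91 and 10.66 in knockdown, against 10.57, 10.39 and 10.59 in wild type, a difference of 0.32. Thus Hspd1 and Hspe1 were both higher in knockdown mice 1 and 2, while in knockdown mouse 3 Hspe1 was above and Hspd1 below all wild type mice. Which genomic copy of these sequences each probe set samples is not given in the sources used here.

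Without knockdown mouse 3, all 10 members rose, where 17.2% of all genes tested rose in that fit. The differences then lay between 0.27 and 0.48, or 1.20-fold and 1.40-fold, with a median of 0.32 beside 0.01 over all genes (adjusted p between 0.000557 and 0.0054). Cct3 was highest, at 0.48 ± 0.07, followed by Hspe1 at 0.44 ± 0.08 and Cct8 at 0.41 ± 0.05. Cct2 hardly moved (0.29 ± 0.05). Without wild type mouse 1, 2 or 3, limma called 0 members, and 3, 2 and 2 had an unadjusted p under 0.05. Without knockdown mouse 1 or 2 the count was 1, and the median difference was 0.17 and 0.15. Hspd1 then differed by 0.07 and 0.11, Cct6a by 0.08 and 0.07 and Cct7 by 0.077 and 0.085, against 0.19, 0.14 and 0.16 on all arrays. The 2 knockdown mice of the smaller fit remain a thin basis, and the choice to show it followed from the array that stood apart.

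**Figure D2:**
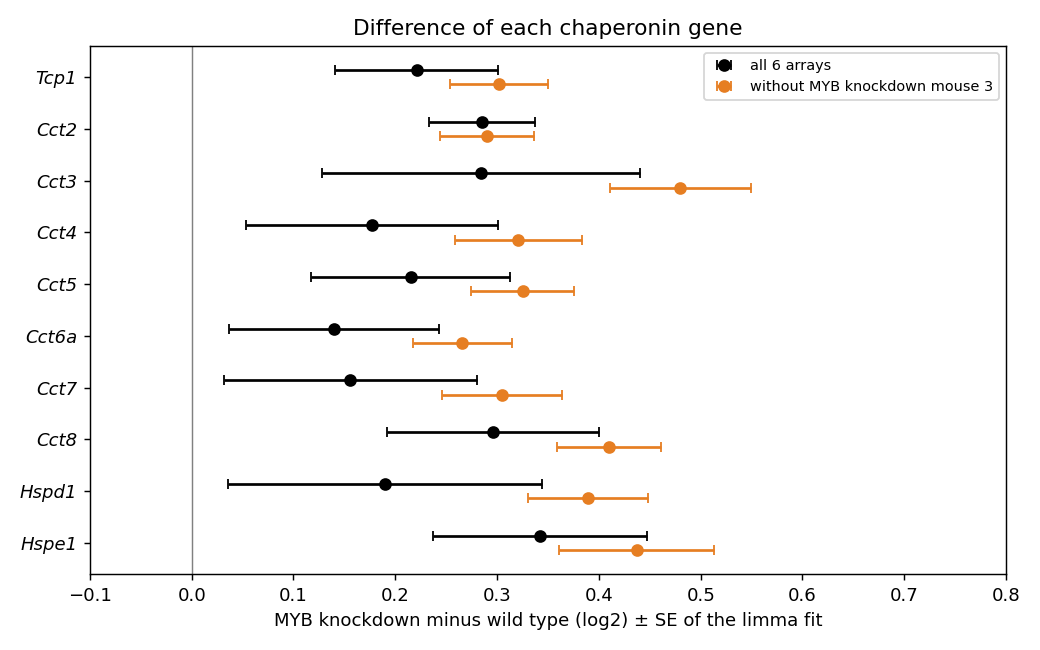
Difference between MYB knockdown and wild type for each chaperonin gene, as a log2 value, with bars for the SE of the limma fit; black points use all 6 arrays and orange points leave out knockdown mouse 3. All points lie right of 0, and the orange points lie farther right with shorter bars for every gene except Cct2, whose points nearly coincide.

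The members moved together over the arrays. Among the 45 pairs of members Pearson's r over the 6 arrays was between 0.46 and 0.991, with a median of 0.903. All pairs share the same arrays, and the split of the knockdown group enters every one of them. The 3 genes outside the lists whose values followed the members' mean most closely were Pithd1 (r = 0.9985), Fut8 (r = 0.9981), which encodes a fucosyltransferase, and Phgdh (r = 0.9965), the first enzyme of serine synthesis. Phgdh lay at 9.40, 9.45 and 9.05 in knockdown, against 9.10, 9.03 and 9.10 in wild type. With 6 arrays and so many genes, values of r this high are a description only.

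Of the genes that start opposite a member, Psph, the last enzyme of serine synthesis, lay at 7.82, 7.93 and 7.41 in knockdown, against 7.43, 7.42 and 7.44 in wild type (0.29 ± 0.14, adjusted p = 0.259). As in its partner Cct6a, knockdown mice 1 and 2 lay above all wild type mice and knockdown mouse 3 below them, for Psph only slightly. Over all genes, knockdown mice 1 and 2 lay above every wild type mouse for 32.3%. Knockdown mouse 3 lay below every wild type mouse for 36.5%. Pradc1, the partner of Cct7, lay at 8.20, 8.26 and 7.95 in knockdown, against 7.86, 7.97 and 7.95 in wild type (0.21 ± 0.11, adjusted p = 0.298). Mrpl18, a mitochondrial ribosomal protein gene opposite Tcp1, lay at 9.88, 9.99 and 9.36 in knockdown, against 9.98, 9.57 and 9.83 in wild type (-0.05 ± 0.17, adjusted p = 0.914). Here the groups overlapped and Tcp1's separation was not shared. Atpsckmt (-0.00 ± 0.13) and Tsacc (0.10 ± 0.10) did not pass either (adjusted p = 0.996 and 0.617).

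The genes that work with the chaperonins were read from lists of related chaperones. Over all 13956 genes tested, 2099 were higher and 1479 lower at an unadjusted p under 0.05 by limma. Counts at that threshold in the lists are to be read beside these. Prefoldin hands newly made actin and tubulin to TRiC, and phosducin-like proteins assist it. Of 8 tested genes of this list limma called 0, 1 had an unadjusted p under 0.05, and the median was 0.12. That gene, Pfdn6, lay at 8.90, 9.06 and 8.89 in knockdown, against 8.72, 8.56 and 8.70 in wild type, without overlap (0.29 ± 0.10, adjusted p = 0.106; 0.0167 without knockdown mouse 3). Of 3 chaperonin-like genes of Bardet-Biedl syndrome, Mkks, Bbs10 and Bbs12, 0 were called by limma and 0 had an unadjusted p under 0.05. Without knockdown mouse 3, 1 of the prefoldin list and 1 of these 3 rose.

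Among 15 tested TRiC clients (actin, tubulins, WD40-repeat proteins and the regulators Vhl, Hdac3 and Plk1) 2 rose and 1 fell, with a median of 0.08. Tuba1a, an alpha-tubulin, lay at 9.60, 9.09 and 8.96 in knockdown, against 8.40, 8.40 and 8.44 in wild type, and rose by 0.80 ± 0.16 (adjusted p = 0.0153). Tubb2a, a beta-tubulin, rose by 0.45 ± 0.11 (adjusted p = 0.0374). Tuba4a, another alpha-tubulin, fell by 0.29 ± 0.05 (adjusted p = 0.0112), with 11.60, 11.52 and 11.53 in knockdown, against 11.84, 11.79 and 11.88 in wild type. These tubulin calls were lost without some arrays: Tuba1a without wild type mouse 1, 2 or 3 (adjusted p = 0.075, 0.0745 and 0.0594), Tuba4a without wild type mouse 1 or 3 (0.0649 and 0.0736), and Tubb2a without any 1 mouse other than knockdown mouse 3 (0.0727 to 0.159). On all arrays, Tuba4a was also lost after median centring (0.0588) and without the trend of eBayes (0.0648), and Tubb2a with the replicate block (0.0654). In the fit without knockdown mouse 3, 3 of the 15 clients rose and 2 fell, beside 2397 and 1397 of all 13956 genes tested. Tubg1, a gamma-tubulin, did not pass on all arrays (0.33 ± 0.09, adjusted p = 0.0502). It was higher in every knockdown mouse than in every wild type mouse, and was called without knockdown mouse 3 (adjusted p = 0.0168). Tubulins are close relatives, and cross-hybridization was not tested. Of 6 tubulin cofactors, which act after TRiC in assembling the tubulin dimer, limma called 0, and 3 (Tbcd, Tbca and Tbcc) had an unadjusted p under 0.05, all higher in knockdown (0.28 to 0.30). Their median was 0.26, beside 0.22 for the chaperonins, and 5 of the 6 had a higher mean. For 3 of them every knockdown array lay above every wild type array, as for 19.9% of all genes. Without knockdown mouse 3, 3 of the 6 rose (Tbca, Tbcb and Tbcd), with a median of 0.275, where 17.2% of all genes tested rose.

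In mitochondria the matrix Hsp70, mortalin (Hspa9), pulls in proteins and passes them on to Hsp60. Hspa9 lay at 10.97, 11.04 and 10.80 in knockdown, against 10.52, 10.62 and 10.60 in wild type, so unlike Hspd1 it was higher in all 3 knockdown mice. It rose by 0.35 ± 0.08, or 1.28-fold (adjusted p = 0.0275), and with 1 mouse left out it was called only when that was knockdown mouse 3 (adjusted p = 0.000757), where the other 5 such fits gave 0.0629 to 0.133. Without the trend of eBayes it was not called either (0.0547). It was the 1 gene that rose among 16 mitochondrial chaperones and proteases, whose median was 0.05; 5 had an unadjusted p under 0.05, all higher. Hscb (0.40 ± 0.11, adjusted p = 0.0513), a co-chaperone of iron-sulfur cluster assembly, and Clpp (0.40 ± 0.11, adjusted p = 0.0569), a matrix protease, were close to the threshold. In the fit without knockdown mouse 3, 6 of the 16 mitochondrial genes rose, with a median of 0.18, where 17.2% of all genes tested rose.

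Of 21 genes of the cytosolic Hsp70 and Hsp90 systems 18 had a higher mean in knockdown, with a median of 0.14. By limma, however, 0 rose and 1 fell. At an unadjusted p under 0.05 by limma 3 of the 21 were higher, beside 2099 of all 13956 genes tested. The gene that fell was Hspa4l, a nucleotide exchange factor of Hsp70, at 8.17, 7.97 and 7.33 in knockdown, against 8.69, 8.62 and 8.52 in wild type (-0.79 ± 0.20, adjusted p = 0.0403). That call was lost when wild type mouse 1, 2 or 3 was left out (adjusted p = 0.159, 0.146 and 0.104), and when knockdown mouse 2 was (0.077). It was also lost after median centring (0.0505). Without knockdown mouse 3, 12 of the 21 rose and 1 fell. The next 3 genes by p were all higher in every knockdown mouse than in every wild type mouse, without passing. Bag3 (0.63 ± 0.18, adjusted p = 0.0613) and Dnajb1 (0.28 ± 0.10, adjusted p = 0.11) were highest in knockdown mouse 3, and Stip1 (0.26 ± 0.08, adjusted p = 0.0806), an adaptor between Hsp70 and Hsp90, was lowest there among the knockdown mice.

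Chaperones of the endoplasmic reticulum, which fold secreted and membrane proteins, were lower. All 15 had a lower mean in knockdown (14 after median centring), with a median of -0.32, and 3 fell, where 5.48% of all genes tested fell. For 10 of the 15 every knockdown array lay below every wild type array, as for 14.4% of all genes. Sdf2l1, part of a chaperone complex of this compartment, lay at 10.34, 10.47 and 10.24 in knockdown, against 10.98, 10.71 and 10.81 in wild type, and fell by 0.49 ± 0.10 (adjusted p = 0.0141).

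The other 2 were disulfide isomerases, Pdia6 (-0.57 ± 0.14, adjusted p = 0.0333) and P4hb (-0.36 ± 0.09, adjusted p = 0.0392). With wild type mouse 1, 2 or 3 left out, the adjusted p of Pdia6 was 0.149, 0.0605 and 0.113 and that of P4hb 0.168, 0.107 and 0.105. P4hb was also lost without knockdown mouse 2 (0.0674), and Sdf2l1 without wild type mouse 1 or 3 (0.0761 and 0.06). After median centring Pdia6 and P4hb were lost (0.0547 and 0.0906), and P4hb also without the trend of eBayes (0.0778). The count of falls was 0, 1 and 0 without wild type mouse 1, 2 or 3 (4, 11 and 9 at an unadjusted p under 0.05 by limma). It was 6, 2 and 7 without knockdown mouse 1, 2 or 3, and 1 after median centring. The mean over the list stood at -0.21, -0.24 and -0.53 relative to wild type in knockdown mice 1, 2 and 3, while that of the chaperonins stood at 0.35, 0.35 and -0.01. Knockdown mouse 3 was thus the lowest knockdown array in both lists, as it was in every other list. For all genes tested the means were 0.011, 0.019 and -0.005 in knockdown mice 1, 2 and 3.

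**Figure D3:**
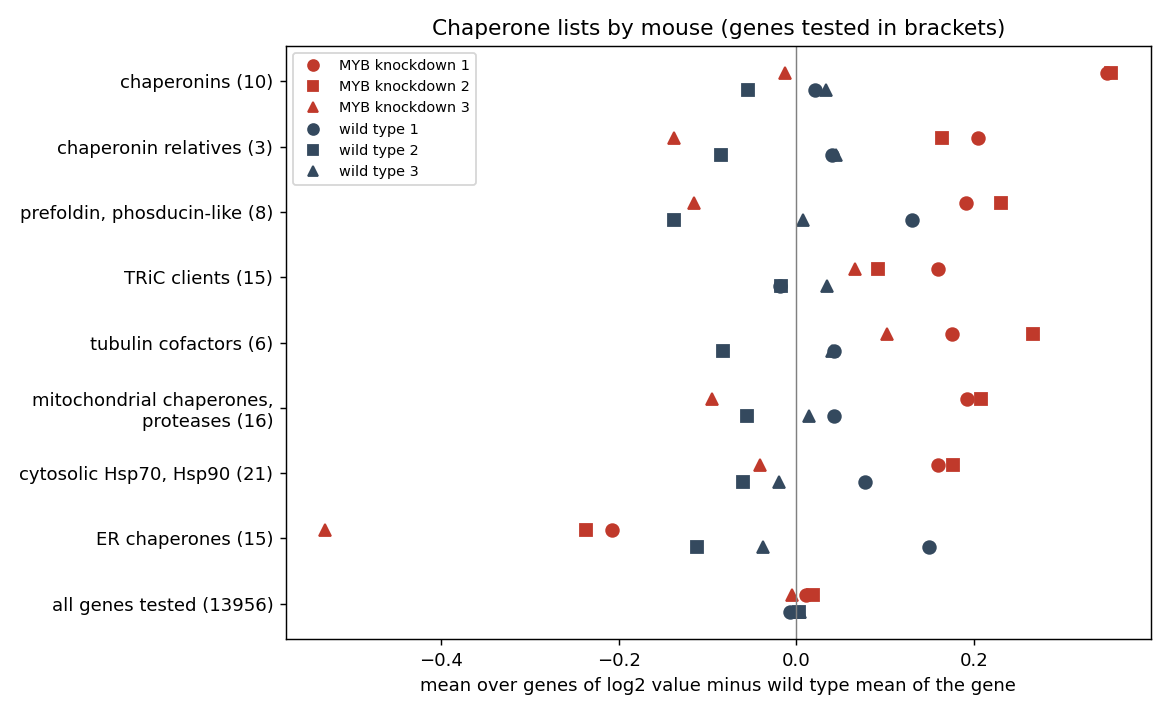
Mean over the tested genes of each list of the log2 value minus the wild type mean of that gene, with 1 point per mouse, MYB knockdown in red above wild type in dark blue. The chaperonins separate knockdown mice 1 and 2 (0.35 each) from all other mice. So do the other lists apart from the endoplasmic reticulum chaperones, with smaller means, such as 0.19 and 0.21 for the mitochondrial genes. The chaperones of the endoplasmic reticulum lie below all wild type mice in every knockdown mouse.

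**Figure D4:**
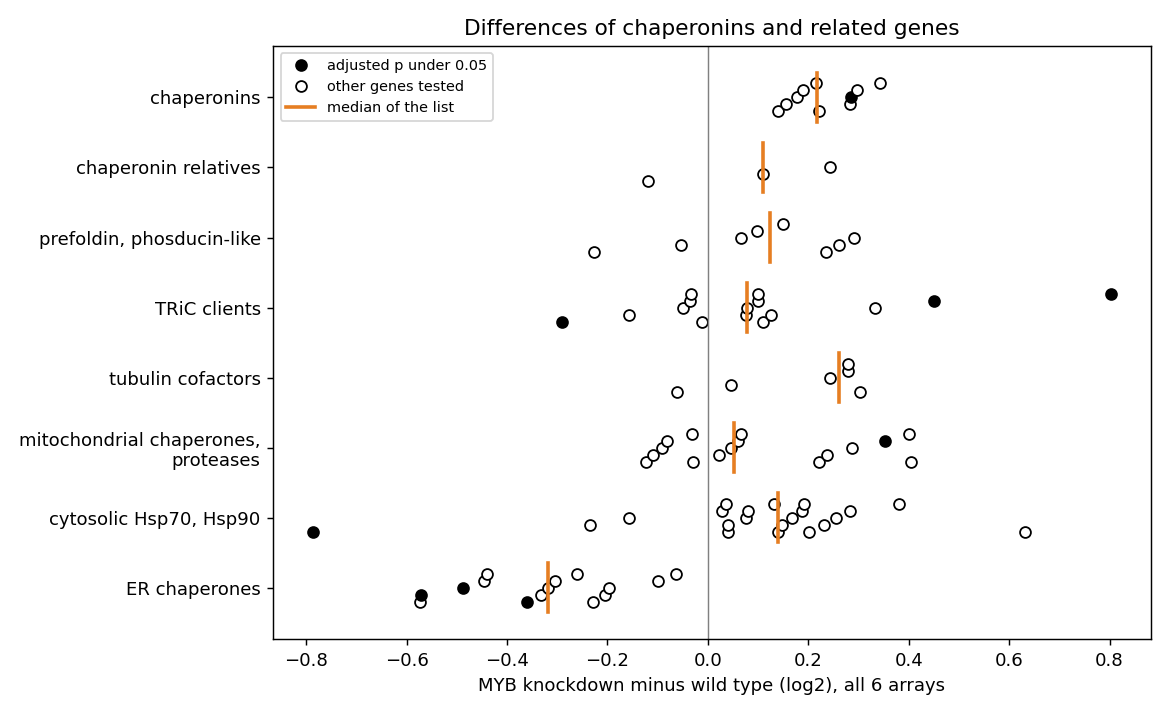
Difference between MYB knockdown and wild type on the log2 scale for each tested chaperonin and related gene, 1 row per list; filled points have an adjusted p under 0.05 by limma and the orange line is the median. The chaperonin row lies wholly right of 0 and the row of endoplasmic reticulum chaperones wholly left of it.

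Markers of other cells also differed between the mice. Of 5 measured megakaryocyte markers 4 rose, and their summed signal lay between 11.24 and 11.47 in knockdown, against 9.85 and 9.96 in wild type (log2). Of 8 neutrophil markers 4 fell, with 12.57 to 13.41 in knockdown, against 14.26 to 14.45 in wild type. They did not all move alike. Cxcr2 was higher in every knockdown mouse than in every wild type mouse, without passing (0.61 ± 0.17, adjusted p = 0.05035). For Ly6g and Mmp9 the groups overlapped. Of 7 eosinophil, basophil and mast cell markers 6 fell and 1 rose, with 11.17 to 11.77 in knockdown, against 13.03 to 13.34 in wild type. The summed signal of 5 of 8 listed erythroid markers was highest in knockdown mouse 3, at 12.41, against 11.85 and 10.91 in knockdown mice 1 and 2 and 11.52 to 12.04 in wild type. Of these erythroid markers limma called 0, and 1, Alas2, had an unadjusted p under 0.05. Alas2 was higher in knockdown, at 5.45, 5.24 and 5.26 in knockdown mice 1, 2 and 3. It was dim, at percentile 2.2 of the genes tested. Of 6 measured B cell markers 2 of 5 tested fell, and of 5 tested T and NK markers 1 rose and 1 fell. The part of these cells in the values of the chaperonins was not tested.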

How the data were processed

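The deposited table holds the authors' log2 values per probe set for 6 arrays. Per the submitters' processing notes, the tools were limma and Affymetrix Expression Console; no source used here gives their versions or roles, the background correction or the normalization. The values themselves showed the log2 scale. Arrays carry no read depth, and their number limits the precision. Of 35556 probe sets, 21789 carried a single gene symbol in the platform's annotation, 1621 carried more, and 12146 were not listed. Per gene the probe set of highest mean over all 6 arrays was used, and the lowest 30% of genes by mean were left out.

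Knockdown was compared with wild type with limma 3.58.1 under R 4.3.3 (lmFit, then eBayes with its trend option) and no covariates. The p-values of all 13956 genes were adjusted by Benjamini-Hochberg, with a threshold of 0.05. Every adjusted p comes from this fit or, where the text names a setting, from the same fit with that change. In data simulated from these means and spreads, with 50 genes per size, it recovered 0%, 22%, 76% and 100% of genes changed by 0.25, 0.5, 1 and 2 (log2). That simulation gave 101 calls, against 1619 in the real data, so its shares do not carry over to the real data.

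Members and lists were chosen with earlier results of these data known. Named genes were all members, Myb, up to 4 genes of smallest p per related list, genes starting opposite a member, and the 3 most alike in pattern; other genes are named only as members of a list counted in full. Alternatives were a replicate block, each array left out, other scalings, filters and probe set rules, eBayes without trend and array weights.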

Additional observations from a re-analysis of the deposited data

How the results depend on the processing

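All 10 chaperonins kept a higher mean in knockdown under each of the 15 alternatives. The replicate block, the filters and eBayes without trend could not change a mean difference, however. The probe set rules could change only those of Hspd1 and Hspe1. The count that rose, 1 on all arrays, was 2 after median centring, 0 without the trend of eBayes (3 at an unadjusted p under 0.05 by limma), 10 with array weights, and 0 to 10 with 1 array left out. Over all genes 1619 calls became 3912 with array weights and 663 to 3794 with 1 array left out. Of the 13956 genes tested, 2351 rose with array weights, and 2397 without knockdown mouse 3, the other fit in which 10 members rose. Of the related genes 8 were called, 36 with array weights and 0 to 36 with 1 array left out (21 to 47 at an unadjusted p under 0.05 by limma). The endoplasmic reticulum chaperones that fell, 3 on all arrays, numbered 5 after quantile normalization, 1 after median centring, 8 with array weights, 6 with the replicate block and 0 to 7 with 1 array left out. The cause was not tested; a fit with 1 array left out has fewer mice.

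The labels do not say whether mice with the same number share anything else. Their deviations correlated at 0.293, -0.188 and -0.083, where pairs of unlike number lay between -0.369 and 0.365. Deviations from a mean of 3 constrain each other, so these values do not decide whether the mice were paired. With the replicate block 746 genes rose and 726 fell, and 1 chaperonin rose. Using the dimmer probe sets of Hspd1 and Hspe1, chosen after seeing the data, left the count of chaperonins at 1. Neither gene was called with its brighter probe set, nor with the dimmer one (adjusted p = 0.863 for Hspd1 and 0.0717 for Hspe1). The array weights fit stopped before its convergence tolerance was met. In the simulated data the fit recovered 0% of genes changed by 0.25 and 22% of those changed by 0.5. It made 101 calls there, against 1619 in the real data, and the adjustment of p depends on that number. These shares therefore do not carry over to the chaperonins, whose differences lie between 0.14 and 0.34.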
